A study of Homo sapiens with 6 samples.

Results

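NUPR1 and 9 other genes of the integrated stress response were followed in a breast cancer cell line, MDA-MB-231, under the drug PCI-24781. The genes were found in the expression files by NCBI Gene ID, and all 10 were present among 16623 genes. NUPR1 was chosen because it was lower than in DMSO in all 4 drug comparisons. The other 9, ATF4, DDIT3, ASNS, TRIB3, CHAC1, SESN2, DDIT4, ATF3 and PPP1R15A, were chosen as known genes of the pathway. The drug differences of NUPR1 therefore describe how it was chosen and are not a finding about it.

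In the integrated stress response, kinases that sense unfolded protein, amino acid shortage, haem shortage or double-stranded RNA phosphorylate the translation factor eIF2. General translation is then slowed, while the mRNA of the transcription factor ATF4 is translated more. ATF4 and its partners raise transcription of genes for amino acid supply and, under lasting stress, of DDIT3, which encodes the transcription factor CHOP. NUPR1 encodes a small, disordered chromatin protein that is induced by many stresses and lies downstream of ATF4. ATF4 itself is controlled mainly in translation, which RNA levels do not show.

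MDA-MB-231 is an established line of triple-negative breast cancer. PCI-24781 inhibits histone deacetylases, and DMSO served as the control. Adherent cells of this 1 line received 100 nM or 200 nM of the drug, or DMSO alone, and were collected after 24 h or after 48 h, all in DMEM with fetal bovine serum and antibiotics. Each of the 6 conditions had 1 library, so no drug difference at a given time has a replicate check and none was given a p-value. The time difference was repeated in 3 treatments and was tested over them. Expression was given as FPKM, which is fragments scaled by transcript length and library depth. The 5 line markers read as the line is known, with VIM between 1629 and 2053 and CD44 between 154 and 219 FPKM in the 6 libraries. CDH1 was at most 0.39, ESR1 at most 0.04 and PGR at most 0.03.

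Judged by the spacing of low FPKM values, each library held about 15700000 to 18100000 fragments. The library labelled 100 nM 48 h stood apart in its direction. Against the DMSO library of each time, 523 genes were at least 2-fold higher at 200 nM 24 h. Of these, 441 were lower at 100 nM 48 h, while 498 were higher at 200 nM 48 h. An effect of this dose and time cannot be told apart from a property of the 100 nM 48 h or DMSO 48 h library, and exchanged labels of these libraries cannot be told apart from it. Such an exchange would turn the sign of every 100 nM 48 h difference given here and change the reference of 200 nM 48 h. It would also change the comparisons of 48 h with 24 h in DMSO and with 100 nM, and the time test over the treatments. For most genes named below, the 48 h values are therefore given by dose or as a range over libraries. For some, such as XPOT and AARS1, they are not given in full. The ratio of 200 nM 48 h to 100 nM 48 h is given for NUPR1 and PPP1R15A only.

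NUPR1 (NCBI Gene ID 26471) lies on the minus strand of chromosome 16 from 28548662 to 28550495 in hg19. Its 24 h level was 2.14 FPKM in DMSO, 0.59 with 100 nM and 0.40 with 200 nM. Its 48 h level was 6.21 FPKM in DMSO, 4.51 with 100 nM and 2.35 with 200 nM. At each time the DMSO library was highest and the 200 nM library lowest, and all 48 h libraries were above all 24 h libraries. On the scale of log2(FPKM + 1), the difference from DMSO of the same time was -0.98 with 100 nM and -1.17 with 200 nM at 24 h. The 48 h differences were -0.39 with 100 nM and -1.11 with 200 nM.

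As ratios of FPKM, which carry no pseudocount, NUPR1 was 0.276 of DMSO with 100 nM and 0.187 with 200 nM at 24 h. At 48 h the ratio was 0.726 with 100 nM and 0.378 with 200 nM. The gene is short and was weakly expressed, so these values rest on few fragments. The shortest annotated transcript has 550 bases and the gene spans 1834 bases, and between these lengths the value at 200 nM 24 h stands for about 4 to 13 fragments. The value in DMSO 24 h stands for about 21 to 71, and that in DMSO 48 h for about 60 to 200. With the shorter length, which gives the widest range, the approximate 95% counting interval of the ratio at 24 h was 0.0987 to 0.766 with 100 nM and 0.0497 to 0.591 with 200 nM. At 48 h it was 0.487 to 1.10 with 100 nM, which includes no difference, and 0.213 to 0.629 with 200 nM. These intervals cover counting error only, not the spread between cultures.

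**Figure D1:**
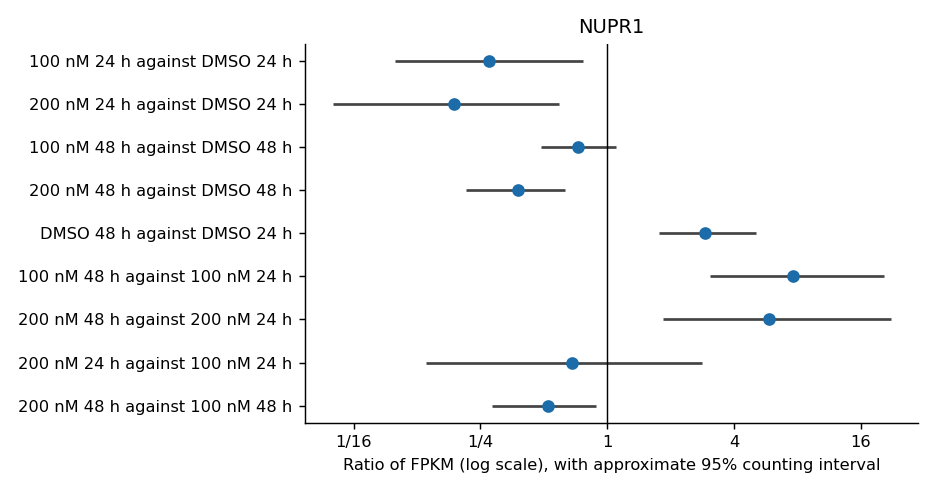
Ratio of NUPR1 FPKM between pairs of libraries on a log scale, with points for the ratio and lines for the approximate 95% counting interval at a transcript length of 550 bases. The intervals of the drug comparisons lie below 1 except at 100 nM 48 h, where the interval ends at 1.10, and the 3 comparisons of 48 h with 24 h lie above 1.

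Of 11293 genes that reached FPKM 1 in every drug comparison, 1272 (11.3%) were lower in all 4 by any amount. NUPR1 was the only 1 of them whose smallest difference was as large as 0.39 on the log2 scale. This describes the choice of NUPR1, and both doses of a time were set against 1 DMSO library. Its smallest difference came from the 100 nM 48 h library.

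Between the doses, NUPR1 with 200 nM was 0.678 of its level with 100 nM at 24 h, with a counting interval of 0.138 to 2.81, so a difference was not detectable at this depth. For 48 h the same ratio was 0.521, with an interval of 0.285 to 0.881. This ratio does not use the DMSO 48 h library. By the 2-fold rule used for calls, 0 of the 9 genes tested between the doses at 24 h were called, beside 0.343% of all genes higher and 0.18% lower. At 48 h 0 of 10 were called, beside 1.71% higher and 0.291% lower.

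**Figure D2:**
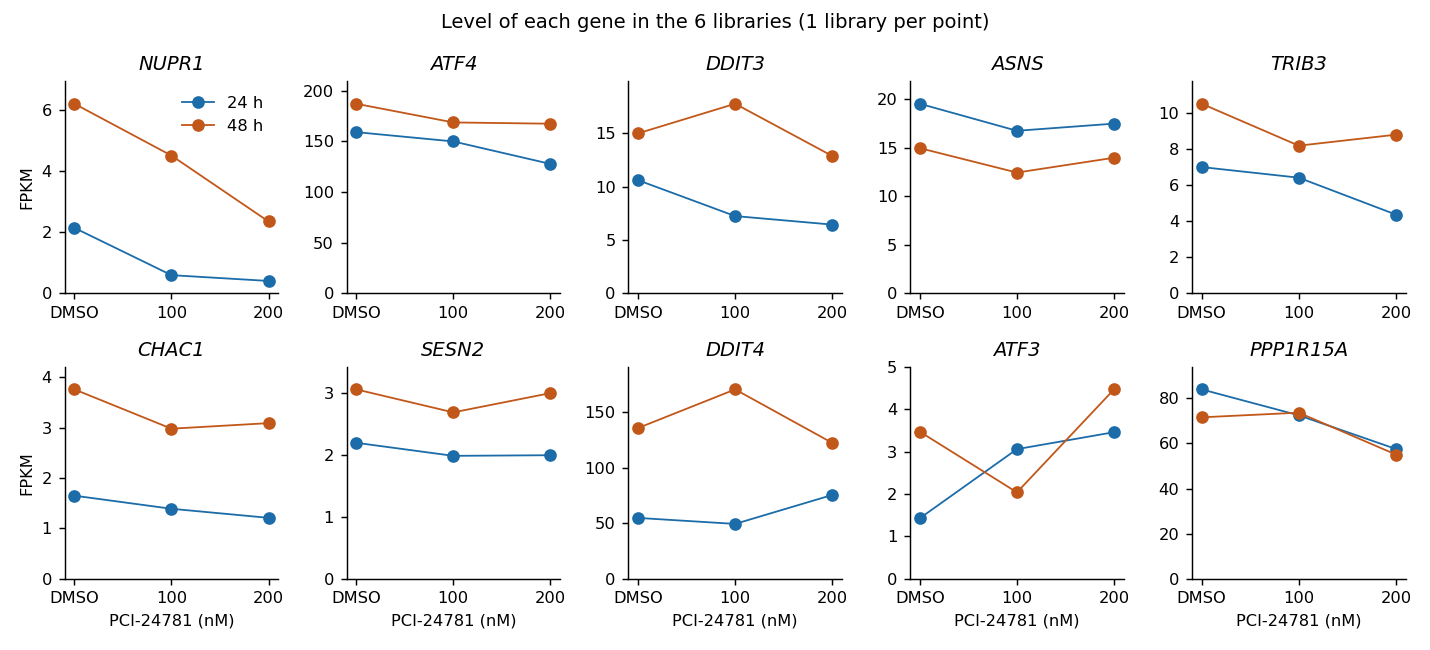
FPKM (linear axes from 0) of each of the 10 genes against PCI-24781 dose, with 24 h in blue and 48 h in orange and 1 library per point. NUPR1 is lowest with 200 nM at both times, while the 48 h points lie above all 24 h points for 7 genes and below them for ASNS.

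ATF4 (NCBI Gene ID 468, chromosome 22 from 39916564 to 39918691 in hg19), the central transcription factor of the response, had the highest FPKM, a value per transcript length, of the 10 genes in every library except 100 nM 48 h, where DDIT4 was slightly higher. Its level was 159 FPKM in DMSO 24 h, 150 with 100 nM and 128 with 200 nM. At 48 h the values were 187, 169 and 168 in the same order. DMSO was highest at each time. The log2 differences from DMSO were -0.09 and -0.31 in the 24 h libraries, and -0.15 and -0.16 in the 48 h libraries.

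DDIT3 (NCBI Gene ID 1649, chromosome 12 from 57910371 to 57914300 in hg19) encodes CHOP, which promotes cell death under lasting stress. It had 10.6 FPKM in DMSO 24 h, 7.24 with 100 nM and 6.44 with 200 nM. After 48 h it had 15.0 in DMSO, 17.8 with 100 nM and 12.9 with 200 nM. The 100 nM library was thus below DMSO at 24 h and above it at 48 h. The log2 differences were -0.49 and -0.64 in the 24 h libraries, and 0.23 and -0.20 in the 48 h libraries. After NUPR1, the DDIT3 difference at 200 nM 24 h was the one farthest below 0 in any drug comparison among the 10 genes.

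TRIB3 (chromosome 20 from 361273 to 378203 in hg19) encodes a pseudokinase that is induced by ATF4 and CHOP and binds ATF4. Its FPKM was 7.01 in DMSO 24 h, 6.42 with 100 nM and 4.37 with 200 nM, and 10.5, 8.20 and 8.81 at 48 h. The log2 difference was -0.58 at 200 nM 24 h and between -0.33 and -0.11 in the other 3 drug comparisons.

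PPP1R15A (chromosome 19 from 49375649 to 49379319) encodes GADD34, the phosphatase subunit that reverses eIF2 phosphorylation and so ends the response. It was 84.0 FPKM in DMSO 24 h, 72.5 with 100 nM and 57.6 with 200 nM. After 48 h it was 71.6 in DMSO, 73.7 with 100 nM and 55.1 with 200 nM. The 200 nM libraries were the lowest at both times and lay close together. The log2 differences with 200 nM were -0.54 at 24 h and -0.37 at 48 h, against -0.21 and 0.04 with 100 nM. Set against 100 nM of the same time, the ratio with 200 nM was 0.794 at 24 h and 0.748 at 48 h.

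ASNS (chromosome 7 from 97481429 to 97501854) encodes asparagine synthetase, a target of ATF4 in amino acid supply. Its level was 19.5 FPKM in DMSO 24 h, 16.8 with 100 nM and 17.5 with 200 nM, and 15.0, 12.4 and 14.0 at 48 h. DMSO was highest at each time, and the log2 differences were small, between -0.25 and -0.09. CHAC1 (chromosome 15 from 41245636 to 41248717) encodes an enzyme that degrades glutathione and had 1.65 FPKM in DMSO 24 h, 1.39 with 100 nM and 1.21 with 200 nM. By 48 h it had 3.76, 2.98 and 3.09 in the same order. Its log2 differences were between -0.26 and -0.15, and the counting interval of each ratio included 1.

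SESN2 (chromosome 1 from 28585963 to 28609002) and DDIT4 (chromosome 10 from 74033677 to 74035797) encode Sestrin2 and REDD1, which restrain the growth kinase complex mTORC1. SESN2 stayed between 1.98 and 3.05 FPKM in the 6 libraries, with log2 differences from DMSO between -0.14 and -0.02. DDIT4 was 54.7 FPKM in DMSO 24 h, 49.3 with 100 nM and 75.3 with 200 nM. It was 135 in DMSO 48 h, 170 with 100 nM and 122 with 200 nM. The direction of DDIT4 thus differed between the doses at both times, in opposite order, with log2 differences of -0.15 and 0.45 in the 24 h libraries, and 0.33 and -0.15 in the 48 h libraries.

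ATF3 (chromosome 1 from 212738676 to 212794119) encodes a stress-induced transcription factor of the ATF family that is also an immediate early gene. It went the other way from NUPR1 at 24 h, with 1.43 FPKM in DMSO, 3.06 with 100 nM and 3.46 with 200 nM. Later, at 48 h, it had 3.47 in DMSO, 2.04 with 100 nM and 4.47 with 200 nM. DMSO 24 h was the lowest of the 6 libraries and 100 nM 48 h the next. As a ratio of FPKM, ATF3 was 2.14-fold and 2.42-fold higher than DMSO at 24 h, with counting intervals of 1.10 to 4.93 and 1.25 to 5.44. With the pseudocount the log2 differences were 0.74 and 0.88, so neither reached 2-fold, and at 48 h they were -0.56 and 0.29.

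**Figure D3:**
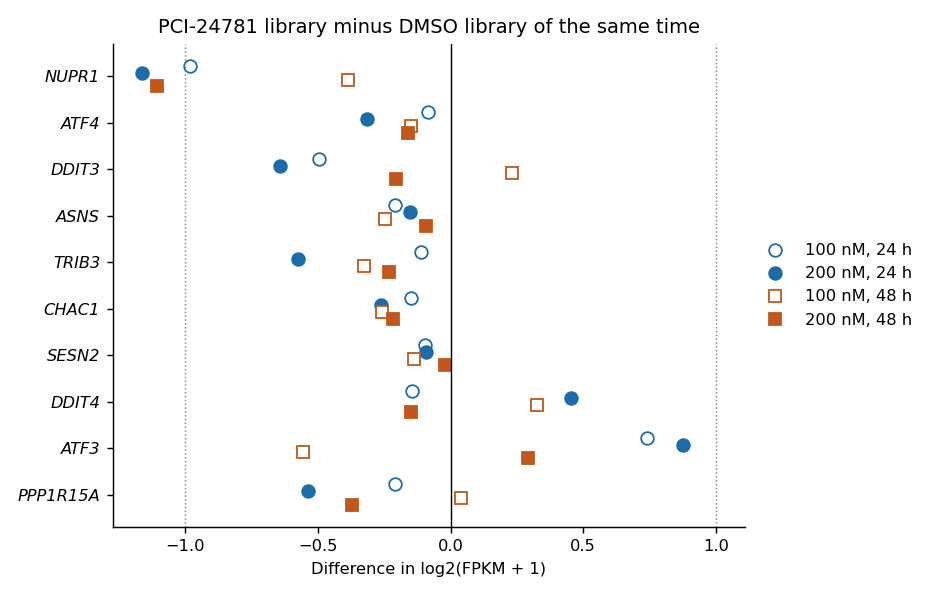
Difference in log2(FPKM + 1) of the 10 genes, each drug library minus DMSO of its own time, 1 point per comparison, with dotted lines at a 2-fold change. NUPR1 passes the lower line with 200 nM at both times, and ATF3 and DDIT4 are the only genes above 0 at 200 nM 24 h.

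A call meant a change of 2-fold or more on this scale, in a gene that reached FPKM 1 in either library. At 100 nM 24 h, 0 of the 10 genes were called lower and 0 higher, beside 0.131% and 1.35% of 11475 genes tested. At 200 nM 24 h, NUPR1 was the 1 gene called lower and 0 were higher, beside 1.48% and 4.49% of 11660. At 100 nM 48 h 0 were called in either direction, beside 0.408% lower and 0.0608% higher of 11514. At 200 nM 48 h NUPR1 alone was called lower and 0 were higher, beside 0.06% and 0.206% of 11665. With the mean of both DMSO libraries as the reference, NUPR1 was no longer called at 200 nM 48 h, with -0.51, and its difference at 100 nM 48 h was 0.21. With FPKM 1 required in both libraries it could not be tested at 24 h. NUPR1 was chosen on these values, and of the other 9 genes 0 were called in any drug comparison.

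Counting differences of any size and leaving out NUPR1, 8 of the 9 genes were lower with 100 nM and 7 with 200 nM at 24 h, where 48.1% and 48.6% of the tested genes were lower. At 48 h, 6 of the 9 were lower with 100 nM and 8 with 200 nM, where 52.4% and 48.6% were. The median log2 difference of the 9 genes was -0.15 with 100 nM and -0.26 with 200 nM after 24 h, and -0.15 with 100 nM and -0.16 with 200 nM after 48 h. The median over all tested genes was between -0.01 and 0.01 in these comparisons. Both doses of a time were set against 1 DMSO library, so the comparisons are not independent of each other. With the mean of both DMSO libraries as the reference, 10 of the 36 differences of these 9 genes had the other sign, and they are named in the closing section.

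The times were also compared over all libraries. For 7 of the 10 genes, NUPR1, ATF4, DDIT3, TRIB3, CHAC1, SESN2 and DDIT4, the 3 libraries of 48 h were all above the 3 libraries of 24 h. This held for 11.3% of 11893 genes that reached FPKM 1 in any library. For ASNS, the 48 h libraries were all below the 24 h libraries, as for 13.2% of all genes. The levels of ATF3 and PPP1R15A overlapped between the times.

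Each treatment gave its own comparison of 48 h with 24 h, with no library in common. NUPR1 was 2.90-fold higher at 48 h in DMSO, 7.64-fold with 100 nM and 5.88-fold with 200 nM, with counting intervals of 1.76 to 5.09, 3.07 to 20.7 and 1.85 to 22.2. DDIT4 was 2.48-fold, 3.45-fold and 1.62-fold higher in the same order. CHAC1 was 2.28-fold, 2.14-fold and 2.55-fold higher, and DDIT3 was 1.41-fold, 2.46-fold and 2.0-fold higher. TRIB3 was 1.5-fold, 1.28-fold and 2.02-fold higher. ATF4 changed less, with 1.18-fold, 1.13-fold and 1.31-fold. ASNS had ratios of 0.766, 0.743 and 0.799.

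With the 2-fold rule on log2(FPKM + 1), NUPR1 and DDIT4 were called higher at 48 h in DMSO, beside 2.49% of all genes. At 100 nM NUPR1, DDIT3 and DDIT4 were called, beside 0.961%. At 200 nM NUPR1 alone was called, beside 0.748%. None of the 10 genes was called lower by this rule at 48 h in any treatment, where 0.131%, 0.857% and 0.179% of genes were.

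Over the 3 treatments together, the time difference was tested with limma on log2(FPKM + 1), with treatment as a block, across 11893 genes. The spread in this test starts from the disagreement of the treatments on the time difference, with 2 residual degrees of freedom per gene. It was pulled towards a variance trend fitted over all tested genes. The SE and p therefore do not rest on the 3 differences of 1 gene alone. NUPR1 was higher at 48 h by 1.42 ± 0.17 (SE), higher in 3 of 3 treatments, with a limma adjusted p of 0.033. It was the 1 gene of the 10 past an adjusted p of 0.05, and 0 were lower, beside 0.462% of all genes higher and 0.0504% lower. DDIT4, with 1.25 ± 0.19 and a limma adjusted p of 0.059, CHAC1, with 0.82 ± 0.13 and 0.066, and DDIT3, with 0.85 ± 0.16 and 0.084, did not pass. The adjusted p of the other 6 was between 0.147 and 0.703. For NUPR1 the limma adjusted p was 0.0999 without the 100 nM libraries, 0.108 without the 200 nM libraries and 0.0283 without the DMSO libraries. It was 0.14 without the treatment block, where CHAC1 and DDIT4 passed.

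**Figure D4:**
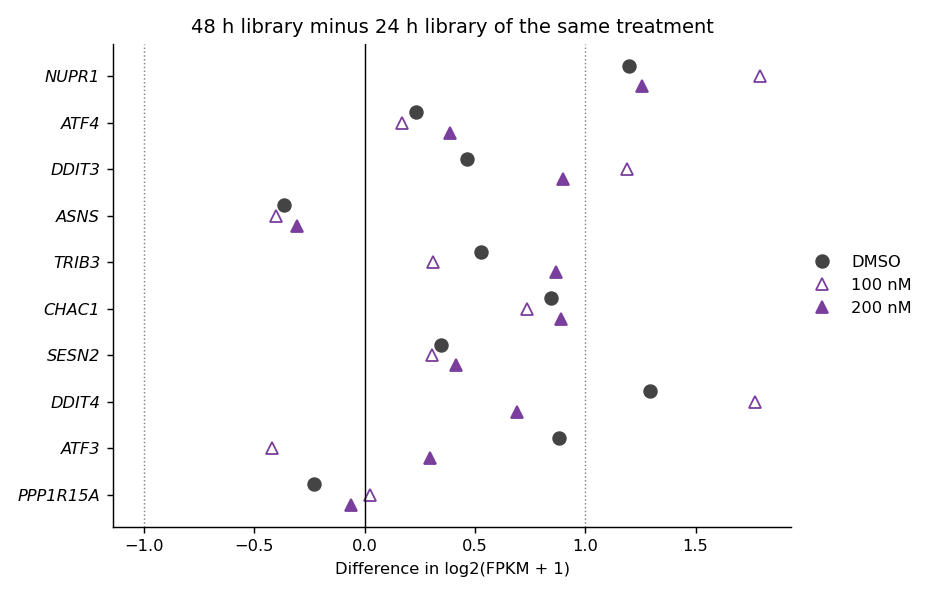
Difference in log2(FPKM + 1) between the 48 h and the 24 h library of the same treatment for the 10 genes, 1 point per treatment, with dotted lines at a 2-fold change. Points of 7 genes lie to the right of 0 in all 3 treatments, and those of ASNS lie to the left.

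ATF4 acts on DNA with C/EBP partners at a composite element. The letters TGATGNAA, an abbreviated form of this element, were searched on both strands in RefSeq promoters of GRCh38.p14, from 250 bases before to 50 after each start site. They were found in 3.62% of 35116 promoters and in at least 1 promoter of 4.46% of 27305 genes. Of the 9 genes among the 10 with a promoter in the table, ASNS, CHAC1 and ATF3 held them. NUPR1 is not in that table. The cyclic AMP response element TGACGTCA is a site of the wider ATF family that reads the same on both strands. It was found in 1.85% of promoters, in at least 1 promoter of 2.25% of genes and, among the 9 genes, in that of PPP1R15A. The windows of 100 bases around these letters are shown for each matching gene, and a link between letters and direction was not tested. ASNS was lower at 48 h than at 24 h, CHAC1 was higher at 48 h, ATF3 was higher with PCI-24781 at 24 h, and PPP1R15A was lowest with 200 nM. They lie at chr7:97872423-97872522 on the minus strand for ASNS, and on the plus strand at chr15:40953221-40953320 for CHAC1, chr1:212565170-212565269 for ATF3 and chr19:48872317-48872416 for PPP1R15A. Capitals mark the match, which starts 68, 209, 191 and 58 bases before the start site in that order, and is read on the other strand in CHAC1.
ASNS: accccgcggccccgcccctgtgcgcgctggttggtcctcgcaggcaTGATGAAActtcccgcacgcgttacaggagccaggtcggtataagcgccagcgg
CHAC1: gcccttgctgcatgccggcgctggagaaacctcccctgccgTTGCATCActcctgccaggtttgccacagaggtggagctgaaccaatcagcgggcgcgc
ATF3: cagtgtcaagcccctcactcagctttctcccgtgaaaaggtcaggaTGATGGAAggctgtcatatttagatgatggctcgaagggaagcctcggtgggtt
PPP1R15A: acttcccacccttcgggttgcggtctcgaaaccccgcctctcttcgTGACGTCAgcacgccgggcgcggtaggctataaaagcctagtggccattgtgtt

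ATF3 and ASNS each have 2 promoters in the table, and the window shown comes from 1 of them. A match is a description of these letters and not a binding site.

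The rest of the pathway was read through 7 lists. Among the kinases and eIF2 factors, all 15 genes were found and tested, and 0 were called in any drug comparison. The median log2 difference was between -0.07 and 0.04. OMA1, a mitochondrial protease that relays mitochondrial stress, went from 6.05 FPKM in DMSO 24 h to 8.81 with 100 nM and 11.5 with 200 nM, and was between 7.85 and 8.79 at 48 h. EIF2B4, a subunit of the exchange factor that recharges eIF2, had 29.2, 19.7 and 17.8 FPKM at 24 h and between 20.9 and 21.8 at 48 h.

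Among 8 basic leucine zipper factors that pair with ATF4 or CHOP, 7 were tested, and ATF5 was the 1 gene called in a drug comparison. It was called lower at 100 nM 24 h, 200 nM 24 h and 200 nM 48 h, beside 0.131%, 1.48% and 0.06% of all genes. ATF5, a close relative of ATF4 that is also controlled in translation, had 28.8 FPKM in DMSO 24 h, 9.78 with 100 nM and 4.01 with 200 nM. In the 48 h libraries it had 11 in DMSO, 15.4 with 100 nM and 4.87 with 200 nM. The 200 nM libraries were the lowest at both times, and 100 nM 48 h was above DMSO 48 h. The log2 differences were -1.47 and -2.57 in the 24 h libraries, and 0.45 and -1.03 in the 48 h libraries. Unlike NUPR1, ATF5 was lower in DMSO 48 h than in DMSO 24 h. BATF3 had 9.47 FPKM in DMSO 24 h, 11.9 with 100 nM and 7.84 with 200 nM, and 8.83, 5.29 and 7.87 at 48 h. CEBPB, singled out after its values were seen, was 26.0, 28.0 and 36.7 FPKM at 24 h and between 65.3 and 67.4 in all 48 h libraries.

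Of 19 genes of amino acid synthesis and transport, 17 were tested. At 24 h, 12 were lower with 100 nM and 11 with 200 nM, beside 48.1% and 48.6% of all genes. At 48 h 6 were lower at each dose, beside 52.4% with 100 nM and 48.6% with 200 nM. The list medians were between -0.10 and 0.04. MTHFD1L, a mitochondrial folate enzyme, was the 1 gene called in a drug comparison, with 19.0 FPKM in DMSO 24 h, 12.3 with 100 nM and 8.64 with 200 nM. At 48 h it had 12.8, 14.1 and 10.4 FPKM in the same order. It was called lower at 200 nM 24 h, beside 1.48% of all genes. SLC1A4, a neutral amino acid transporter, was higher than DMSO at 24 h, with 2.39, 4.34 and 5.54 FPKM. At 48 h it had 4.30, 2.60 and 5.65 FPKM, so the 100 nM library was below DMSO. Between 48 h and 24 h, 13 of the 17 were lower in DMSO, 10 with 100 nM and 9 with 200 nM, where 50.2%, 54.6% and 50.2% of all genes were lower. The medians were -0.34, -0.18 and -0.02.

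The list of cytosolic aminoacyl-tRNA synthetases, which charge tRNAs, and the tRNA exporter XPOT held 13 genes, all tested. At 24 h, 12 were lower with 100 nM and 9 with 200 nM, beside 48.1% and 48.6% of all genes. The medians were -0.15 and -0.20, and 0 were called. At 48 h, 7 were lower with 100 nM and 11 with 200 nM, beside 52.4% and 48.6% of all genes, with medians of -0.01 and -0.07. XPOT and AARS1 had the largest differences, -0.46 for each at 200 nM 24 h. Between 48 h and 24 h, 11 of the 13 were lower in each treatment, counted separately, with medians of -0.20 in DMSO, -0.11 with 100 nM and -0.14 with 200 nM, where 50.2%, 54.6% and 50.2% of all genes were lower. Lower values at 48 h were thus shared by ASNS and most of the synthetase list, while NUPR1, DDIT3 and CHAC1 were higher. The letters TGATGNAA stood in promoters of 7 of the 11 genes of this list in the RefSeq table, beside 4.46% of all genes. They stood in 5 of 14 genes of the amino acid list, 2 of 6 of the leucine zipper factors, 1 of 13 of the kinase and eIF2 list, 1 of 13 of the stress outputs, 1 of 17 of the unfolded protein response and 0 of 5 of the family relatives. The 1 stress output was FGF21, which had no expression value here.

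Of 15 stress outputs downstream of ATF4 and CHOP, 14 were found. At 24 h, 8 of 11 tested were higher with 100 nM and 8 of 12 with 200 nM. The shares of all genes higher there were 51.6% and 51.2%, and the list medians were 0.12 and 0.20. At 48 h, 6 of 12 were higher at each dose, beside 47.2% and 51% of all genes, with medians of -0.02 and 0.01. GDF15, a secreted stress cytokine, was the 1 gene called in a drug comparison, higher at 200 nM 24 h, where 4.49% of all genes were. It went the other way from NUPR1 at 24 h. It had 0.73 FPKM in DMSO 24 h, 1.42 with 100 nM and 3.29 with 200 nM, and 10.2, 6.84 and 10.8 at 48 h. Like NUPR1, it was higher at 48 h than at 24 h in every treatment, with log2 differences of 2.69 in DMSO, 1.70 with 100 nM and 1.46 with 200 nM. STC2, a secreted glycoprotein, had 0.43, 0.68 and 1.76 FPKM at 24 h, and 0.64, 0.58 and 1.20 at 48 h. Among tested genes of this list, 10 of 11 were higher at 48 h in DMSO, and 10 of 12 at each dose, where 49.6%, 45.1% and 49.5% of all genes were.

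The 17 genes of the unfolded protein response and its chaperones in the endoplasmic reticulum were all tested, and 0 were called in a drug comparison. At 24 h, 10 were higher with 100 nM and 9 with 200 nM, beside 51.6% and 51.2% of all genes. At 48 h all 17 were lower with 100 nM, where 47.2% of all genes were higher and 52.4% lower, while 15 were higher with 200 nM, where 51% were. The medians were -0.18 and 0.15. The library labelled 100 nM 48 h thus differed from 200 nM 48 h in this list. XBP1, a transcription factor of this response, went from 35.9 FPKM in DMSO 24 h to 31.4 and 20.0, and the sensor ERN1 from 0.44 to 1.07 and 1.80. In the 48 h libraries, in the order DMSO, 100 nM and 200 nM, XBP1 had 39.9, 33.2 and 34.4 FPKM. ERN1 had 1.24, 1.19 and 1.64.

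**Figure D5:**
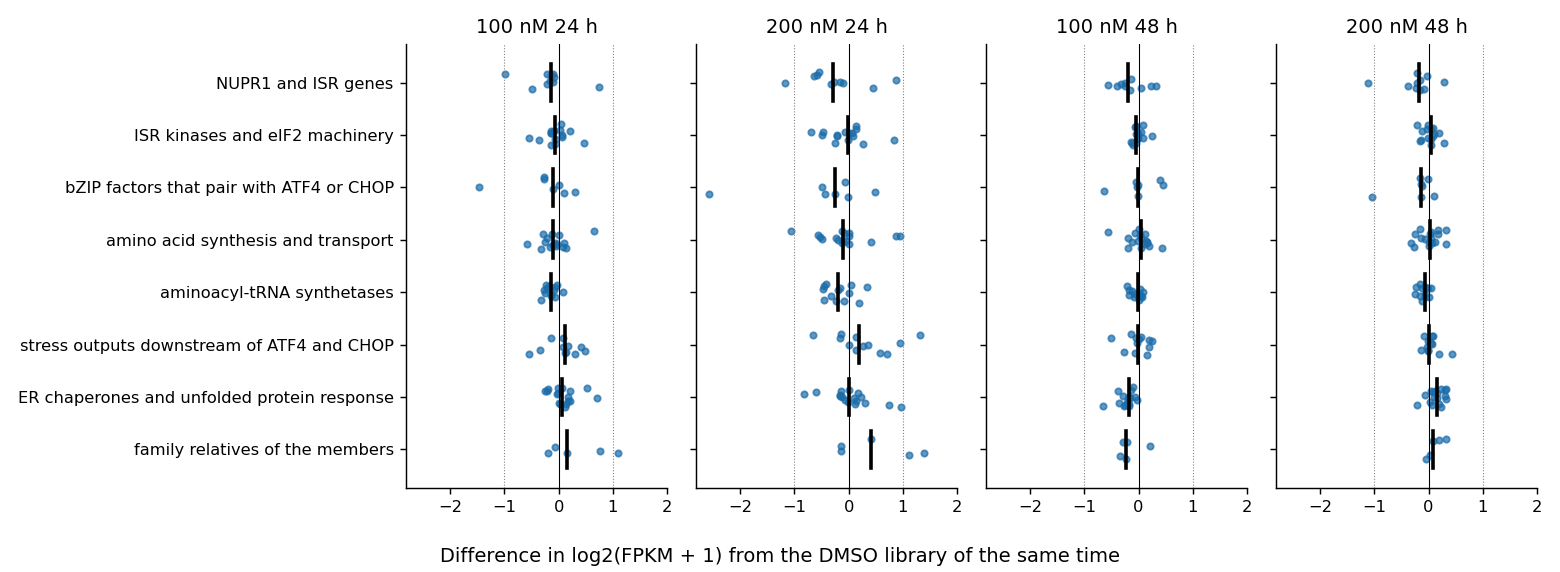
Difference in log2(FPKM + 1), drug minus DMSO of its own time, for the 10 genes and for the genes of each of 7 lists that reached FPKM 1, 1 panel per drug comparison, 1 point per gene, with a bar at the list median and dotted lines at a 2-fold change. Nearly all genes lie within 2-fold, and the points farthest to the left at 24 h belong to ATF5.

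The 5 genes most like NUPR1 across the 6 libraries were LAPTM5, PTGES, SLC37A2, BCL3 and INSIG1. Likeness was the root mean square difference of log2(FPKM + 1) after each gene was centred on its own mean, and was between 0.39 and 0.42 for these 5 among 11892 genes. INSIG1, which holds back cholesterol synthesis, had 18.4, 15.4 and 14.1 FPKM at 24 h and 64.9, 60.8 and 53.8 at 48 h in the order DMSO, 100 nM and 200 nM. LAPTM5, a lysosomal membrane protein gene, had 8.90, 8.63 and 4.91 FPKM at 24 h and 17.7, 17.8 and 13.9 at 48 h. In the same order, PTGES had 30.2, 26.8 and 24.1 FPKM at 24 h and 62.8, 82.3 and 51.7 at 48 h. SLC37A2 had 17.3, 16.1 and 10.7 FPKM at 24 h and 40.2, 45.3 and 39.7 at 48 h. All 5 were higher in every 48 h library than in every 24 h library. At 100 nM 48 h, PTGES, SLC37A2, BCL3 and, slightly, LAPTM5 were above DMSO 48 h, unlike NUPR1, and BCL3 had 39.7 against 31.3 FPKM. Among the 10 genes, DDIT3 was the closest to NUPR1 by this measure, at rank 7 with 0.42, followed by CHAC1 at rank 40 and DDIT4 at rank 95. ATF3 was at rank 10086 and ASNS at rank 10008.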

How the data were processed

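The authors deposited FPKM per gene, rounded to 2 decimals, with 1 file per library. BGI sequenced the libraries, made from enriched mRNA or rRNA-depleted RNA. The submitters' processing notes name hg19, Bowtie2 and RSEM with no versions. Gene names came by NCBI Gene ID from the RefSeq table of GRCh38.p14, which held 16585 of 16623 genes. Differences of log2(FPKM + 1) were calculated between single libraries, with no test and no p-value. The difference of 48 h from 24 h was also tested over the 3 treatments with limma 3.58.1 in R 4.3.3 (trended variance, Benjamini-Hochberg adjustment), a test chosen after seeing the data. Nothing in the labels ties the libraries of a treatment to 1 culture. A call needed a 2-fold change and FPKM 1 or more in either library, and was tested on simulated data. Those data held counting noise only, and weakly expressed genes were left unchanged in them. Detection of changes in genes as weak as NUPR1, and the spread between cultures, were therefore not checked.

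Depth was inferred from low values of single-transcript genes of 500 to 1500 bases, using GENCODE release 29 lengths and between 253 and 301 genes per library. Approximate fragments gave exact binomial 95% intervals of ratios, at the shortest annotated length. Expected counts of RSEM need not be whole, so the depth is approximate. The 10 genes and the lists were chosen with earlier results of these data known. From each list, genes called in a drug comparison and those with the 2 largest differences are named. Other settings tried were a pseudocount of 0.1 or 0.01, all genes unfiltered, FPKM 1 or more in both libraries, TPM, median-of-ratios factors, the mean of both DMSO libraries as reference and a 1.5-fold threshold. Python 3.11.15, numpy 2.4.6, pandas 2.3.3, scipy 1.17.1 and matplotlib 3.10.9 were used.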

Additional observations from a re-analysis of the deposited data

How the results depend on the processing

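The drug comparisons could not be paired or tested within a time, since each of their conditions had 1 library. The time difference was tested with treatment as a replicate block, and this test and its alternatives were chosen after seeing the data. Without the replicate block NUPR1 kept its difference of 1.42 but did not pass (limma adjusted p = 0.14), 2 of the 10 genes, CHAC1 and DDIT4, passed, and 110 genes passed in all, against 61 with the block. With the block, leaving out the DMSO libraries gave 98 genes, with NUPR1 and DDIT3 as the 2 among the 10, and an ATF3 difference of -0.061. Leaving out the 100 nM libraries gave 9 genes and a NUPR1 difference of 1.23, and leaving out the 200 nM libraries gave 8 genes and 1.5, each with 0 of the 10 past the threshold and 1 residual degree of freedom. At an unadjusted p under 0.05, 7 and 6 of the 10 passed in these fits, beside 1284 and 1381 of all 11893 genes. With a pseudocount of 0.1, NUPR1 passed. For NUPR1, the log2 differences at 100 nM 24 h, 200 nM 24 h and 200 nM 48 h were -1.70, -2.16 and -1.36 with a pseudocount of 0.1, -1.84, -2.39 and -1.40 with 0.01, and -1.34, -1.64 and -1.24 with TPM. A smaller pseudocount by construction widens the differences of weakly expressed genes, and TPM with a pseudocount of 1 acts as one, since the values were divided by 0.419 to 0.428. With the mean of both DMSO libraries as reference, they were -1.58, -1.76 and -0.51, and the difference at 100 nM 48 h was 0.21, above 0. With FPKM 1 or more required in both libraries, NUPR1 could not be tested at either dose at 24 h. With median-of-ratios factors and no filter its differences moved by less than 0.1.

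The number of the 10 genes called lower at 100 nM 24 h was 1, NUPR1, with both pseudocounts, TPM, the mean DMSO reference and 1.5-fold. The number called higher there was 1, ATF3, with both pseudocounts and 1.5-fold. At 200 nM 24 h, 1 was higher, ATF3, with both pseudocounts, TPM and 1.5-fold. The number lower there was 2, NUPR1 and DDIT3, at 1.5-fold, and 0 with the filter in both libraries. At 200 nM 48 h, 0 were lower with the mean DMSO reference. Between 48 h and 24 h, 4 genes were higher in DMSO with both pseudocounts and at 1.5-fold. At 200 nM the number was 2, 4, 2 and 5 with pseudocounts of 0.1 and 0.01, TPM and 1.5-fold, and 0 with the filter in both. Between the doses, 1 gene was higher at 24 h at 1.5-fold, DDIT4. At 48 h 1 was higher, ATF3, with both pseudocounts, TPM and 1.5-fold, and 1 lower, NUPR1, at 1.5-fold. A smaller pseudocount or a lower threshold can only add calls, among all genes as among these 10. The share of all genes called is not given for these settings, so a larger count does not set the 10 genes apart.

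Of the differences of the other genes and comparisons, and outside the test over treatments, none had another sign with either pseudocount, the filters or median-of-ratios factors, and 1 of 85 did with TPM, ATF4 between the doses at 48 h, at 0.01. With the mean DMSO reference 10 of 36 did, namely ASNS and DDIT4 at 200 nM 24 h, CHAC1, SESN2 and PPP1R15A at 100 nM 48 h, and DDIT3, TRIB3, CHAC1, SESN2 and DDIT4 at 200 nM 48 h. The levels of these genes differ between the DMSO libraries. Counting error limits NUPR1, CHAC1 and ATF3 most.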

Other observations

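Of 7 family relatives of the 10 genes, 5 were tested, and at 24 h 3 of them were higher and 2 lower at each dose. Of all genes, 51.6% with 100 nM and 51.2% with 200 nM were higher. Called higher were SESN3 at both doses and TRIB1 at 200 nM, beside 1.35% and 4.49% of all genes. SESN3, a sestrin like SESN2, had 2.01 FPKM in DMSO 24 h, 5.45 with 100 nM and 6.91 with 200 nM, with log2 differences of 1.10 and 1.39, while SESN2 differed by -0.10 and -0.09, with counting intervals of the ratio that included 1. TRIB1, a pseudokinase like TRIB3, had 5.58, 10.1 and 13.2 FPKM at 24 h, with log2 differences of 0.76 and 1.11, against -0.11 and -0.58 for TRIB3. In DMSO 48 h both relatives exceeded their DMSO 24 h level, with 5.55 FPKM for SESN3 and 14.2 for TRIB1. At 100 nM 48 h both were below DMSO 48 h, with 4.18 and 11.4 FPKM, and at 200 nM 48 h both were above it, with 6.47 and 18.1.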
